A study of Mus musculus with 8 samples.

Results

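A set of 10 S100 genes was examined: *S100a1*, *S100a2*, *S100a4*, *S100a6*, *S100a8*, *S100a9*, *S100a10*, *S100a11*, *S100a13*, and *S100b*. They were chosen by name, and all 10 were found among the 16536 genes of the count table. The set and the other gene lists below were chosen with earlier results of these data known. Counts of called genes beside the share of all tested genes are therefore descriptions. Bulk RNA sequencing covered mCherry+CD73+ cells sorted by FACS from Pthrp-mCherry mice, whose mCherry reporter labels the *Pthlh*-expressing (PTHrP-producing) cells, and CD73 is the surface protein encoded by *Nt5e*. The study asked what treatment with SAG, an agonist of the Hedgehog signal transducer Smoothened, changes in these cells of the resting zone of the growth plate. Of 8 mice, 4 received SAG and 4 received its vehicle, dimethyl sulfoxide (DMSO), by i.p. injection each day from P30 to P36, and all were sacrificed at P38. The methods text of the study places the injections 1 day later. The cells of the 2 femoral growth plates of a mouse made 1 library, so each value below is 1 mouse, and all 8 mice carried the same reporter.

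S100 proteins are small proteins with paired EF-hand domains that bind calcium, expose a hydrophobic surface, and then bind partner proteins. S100A8 and S100A9 together form calprotectin, a highly abundant cytosolic protein of neutrophils and a major one of monocytes, and after release it is recognized by receptors of innate immunity. *S100a1* and *S100b* are expressed in cartilage, where they are known as targets of the transcription factors SOX5, SOX6, and SOX9, and S100B is also widely used as a marker of glia. S100A4, S100A6, S100A10, and S100A11 are found in many cell types, where they bind annexins or the heavy chain of nonmuscle myosin.

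Between 24971992 and 44300843 reads were counted per library in the DMSO group, and between 34338935 and 46593090 in the SAG group. DMSO replicate 4 had the lowest total and the fewest genes with a count, 14416. Levels are given as CPM, which sets each count against the TMM-scaled size of its library. *Pthlh* was detected at 14.9 to 22.1 CPM with DMSO and 18.4 to 29.9 CPM with SAG, and *Nt5e* at 184 to 270 CPM with DMSO and 149 to 174 CPM with SAG, so both genes used for sorting were present in every library. Markers of chondrocytes, the lineage of resting zone cells, and of blood cells were both present. The summed level of 15 neutrophil markers was 3058 to 10237 CPM in the DMSO group and 17849 to 27811 CPM in the SAG group, and that of 13 chondrocyte markers was 47540 to 109038 CPM in the DMSO group and 19005 to 53452 CPM in the SAG group. Of 9 tested B-lineage markers 3 were lower with SAG, against 0.266% of all tested genes. The B-lineage sums were 82.9 to 375 CPM in the DMSO group and 18.6 to 41.7 CPM in the SAG group. Of 7 erythroid markers 0 were called, against 2.62% higher and 0.266% lower among all tested genes. In such bulk samples, fewer cells of a type and less RNA per cell cannot be told apart.

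*S100a6*, *S100a8*, *S100a9*, and *S100a11* were higher in cells from SAG-treated mice, by 1.37 to 2.25 on the log2 scale, and 0 of the 10 genes were lower. These were 4 of the 9 S100 genes that passed the filter on low counts and were tested (edgeR's quasi-likelihood test, Benjamini-Hochberg adjusted p under 0.05), whereas 2.62% of all 15421 tested genes were higher and 0.266% were lower. The other 5 tested genes, *S100a1*, *S100a4*, *S100a10*, *S100a13*, and *S100b*, were not called, and *S100a2* did not pass the filter. In 5 of the 10 genes all SAG-treated mice were above all DMSO-treated mice, namely the 4 called ones and *S100a2*, and in 0 genes all were below. Over all tested genes, which do not include *S100a2*, 7.9% were separated in this way with SAG above and 3.84% with SAG below. The matching count with SAG above is 4 of the 9 tested members. With each mouse left out, 3 or 4 members were called: *S100a11* was lost without DMSO replicate 2, DMSO replicate 3, or SAG replicate 4, and without DMSO replicate 4 all 4 were called. The median log2 fold change of the 9 tested genes was 0.73, and that of all tested genes was -0.08.

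**Figure D1:**
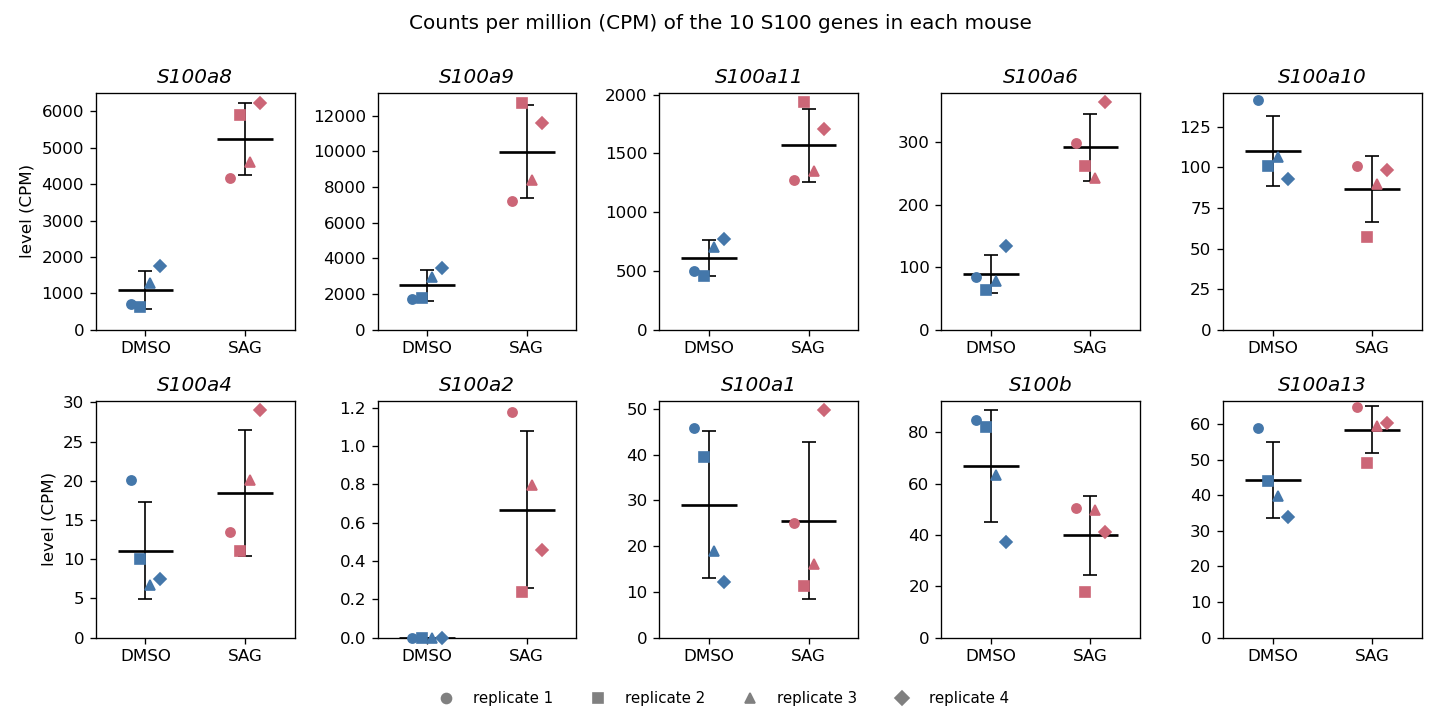
Level of each S100 gene in CPM (linear axis from 0) in the 4 DMSO-treated (blue) and 4 SAG-treated (red) mice, with the mean (line), SD (bars), and 1 symbol per replicate number. The groups are apart for *S100a8*, *S100a9*, *S100a11*, *S100a6*, and *S100a2* and overlap for the other 5 genes.

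All members except *S100b* lie on chromosome 3 of GRCm38. A first stretch runs from *S100a1* (minus strand, 90511034 to 90514392) through *S100a13*, *S100a2*, *S100a4*, *S100a6*, and *S100a8* (all on the plus strand) to *S100a9* (minus strand, 90692632 to 90695721). *S100a11* (93520488 to 93526287) and *S100a10* (93555080 to 93564643), both on the plus strand, form a second stretch, and *S100b* lies on the plus strand of chromosome 10 (76253853 to 76261159). Among the 9 tested members, the 3 with the highest fold changes, *S100a6*, *S100a8*, and *S100a9*, were consecutive among these members along the first stretch, but *S100a7a*, which lies between *S100a6* and *S100a8*, was not called (log2 fold change 0.74 with a standard error, SE, of 1.68, edgeR adjusted p = 0.894). In the second stretch *S100a11* was called and its neighbor *S100a10* was not.

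**Figure D2:**
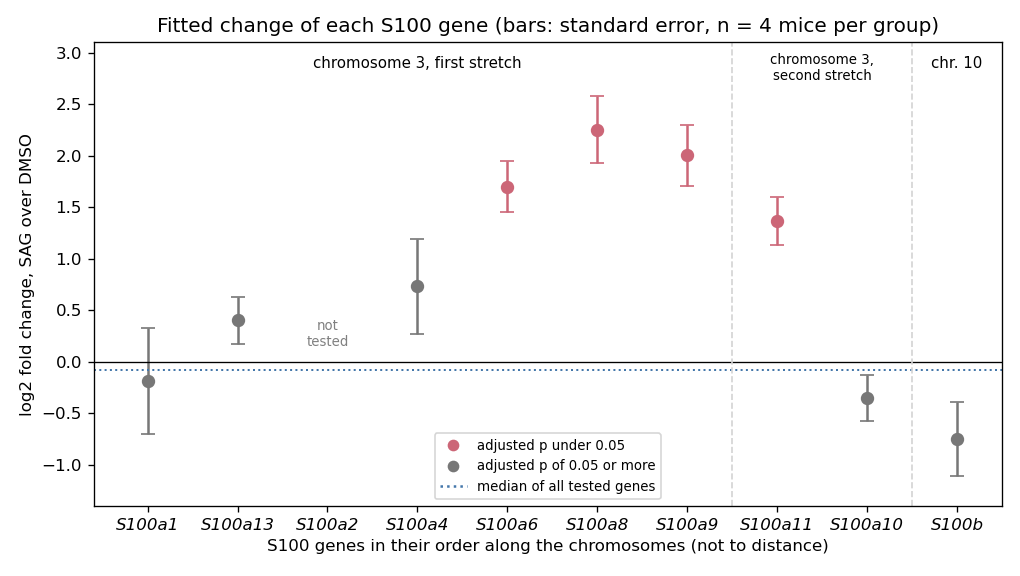
Fitted log2 fold change (SAG over DMSO, y axis) with its standard error for the members in their order along chromosomes 3 and 10 (x axis, not to distance), red where the adjusted p was under 0.05. The 4 called genes lie between 1.37 and 2.25, and the dotted line marks the median of all tested genes at -0.08.

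The sequences upstream of the 4 genes that were higher with SAG are shown because these genes moved together. They are from the RefSeq promoter table for GRCm38.p6, in which 8 of the 10 members were found, and were limited to bases before the transcription start outside annotated exons. Each is printed 5′ to 3′ on the strand of its gene, with matches to the searched motifs in capitals.
S100a8: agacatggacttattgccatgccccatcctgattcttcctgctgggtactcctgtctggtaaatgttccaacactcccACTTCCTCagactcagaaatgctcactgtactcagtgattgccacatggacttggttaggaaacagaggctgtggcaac
S100a9: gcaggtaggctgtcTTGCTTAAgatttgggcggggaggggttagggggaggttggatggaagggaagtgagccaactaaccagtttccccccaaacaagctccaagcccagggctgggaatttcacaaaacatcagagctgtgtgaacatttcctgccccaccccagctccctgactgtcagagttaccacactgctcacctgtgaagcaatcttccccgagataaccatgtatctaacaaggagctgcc
S100a6: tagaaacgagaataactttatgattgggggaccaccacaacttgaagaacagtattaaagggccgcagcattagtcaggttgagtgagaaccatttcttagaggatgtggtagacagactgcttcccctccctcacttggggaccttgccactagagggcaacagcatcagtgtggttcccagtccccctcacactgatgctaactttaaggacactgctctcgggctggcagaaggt
S100a11: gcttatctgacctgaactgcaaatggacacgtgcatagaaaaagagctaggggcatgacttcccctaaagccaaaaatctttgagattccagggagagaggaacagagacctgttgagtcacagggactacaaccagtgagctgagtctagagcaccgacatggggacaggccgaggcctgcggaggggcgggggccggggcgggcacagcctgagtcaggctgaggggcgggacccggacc
The *S100a8* sequence is chr3:90668821-90668977 (plus strand), that of *S100a9* is chr3:90695722-90695971 (minus strand), that of *S100a6* is chr3:90612644-90612881 (plus strand), and that of *S100a11* is chr3:93520246-93520487 (plus strand). The windows of 250 bases before the start were searched on both strands for 3 motifs. TTGCNNAA is a site of the C/EBP family of transcription factors. GAGGAAGT is a site of the myeloid factor PU.1, and AACAAT is a site of the SOX family. The *S100a8* window held the PU.1 letters on the opposite strand, ACTTCCTC, at -172 to -165, and the *S100a9* window held C/EBP letters, TTGCTTAA, at -236 to -229. The windows of *S100a6* and *S100a11* held none of the 3 motifs. Of the other members, *S100a4* held the SOX letters on the opposite strand, ATTGTT, at -17 to -12, and *S100a1*, *S100a13*, and *S100b* held none. Among all 32851 promoters of the table, 9.56% held the C/EBP, 2.44% the PU.1, and 9.42% the SOX letters, and a match describes letters only, not a bound site. No motifs overlapped.

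*S100a8* and *S100a9* encode the subunits of calprotectin. *S100a8* was measured at 716, 639, 1290, and 1747 CPM in DMSO replicates 1 to 4 and at 4179, 5906, 4608, and 6229 CPM in SAG replicates 1 to 4. *S100a9* was measured at 1722, 1795, 2978, and 3457 CPM in DMSO replicates 1 to 4 and at 7207, 12719, 8380, and 11576 CPM in SAG replicates 1 to 4. For both genes the groups did not overlap, and DMSO replicates 3 and 4 were above DMSO replicates 1 and 2. The mean of *S100a8* was 1098 ± 521 CPM in the DMSO group and 5231 ± 991 CPM in the SAG group (SD, n = 4), so the SAG mean was 4.76-fold higher. The fitted log2 fold change was 2.25 (SE 0.33, edgeR adjusted p = 0.0102). The mean of *S100a9* rose from 2488 ± 865 to 9970 ± 2601 CPM (SD, n = 4), with a log2 fold change of 2.00 (SE 0.29, edgeR adjusted p = 0.0102). When single mice were omitted, *S100a8* stayed between 2.07 and 2.60 and *S100a9* between 1.86 and 2.23 on the log2 scale, and both were called in 8 of 8 fits.

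The share of these genes in each library shows the size of the difference. The 10 members together took 0.338%, 0.327%, 0.533%, and 0.664% of all counts in DMSO replicates 1 to 4 and 1.34%, 2.04%, 1.48%, and 1.90% in SAG replicates 1 to 4. The groups did not overlap, with means of 0.465% ± 0.163 (SD, n = 4) and 1.69% ± 0.335 (SD, n = 4), and the exact 2-sided permutation test gave p = 0.0286, the smallest value possible for 4 mice against 4. *S100a8* and *S100a9* made up between 72.3% and 82.7% of the members' counts in DMSO-treated mice and between 86.1% and 88.8% in SAG-treated mice. The other 8 members summed to between 0.0807% and 0.115% of all counts with DMSO and between 0.182% and 0.229% with SAG (exact 2-sided permutation test, p = 0.0286). This sum included *S100a6* and *S100a11*. The called genes that dominate both sums each separated the groups, so both p values restate that separation and are not further evidence. The 6 members that were not called or not tested took between 0.0193% and 0.0352% with DMSO and between 0.0142% and 0.0263% with SAG, with overlapping groups.

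**Figure D3:**
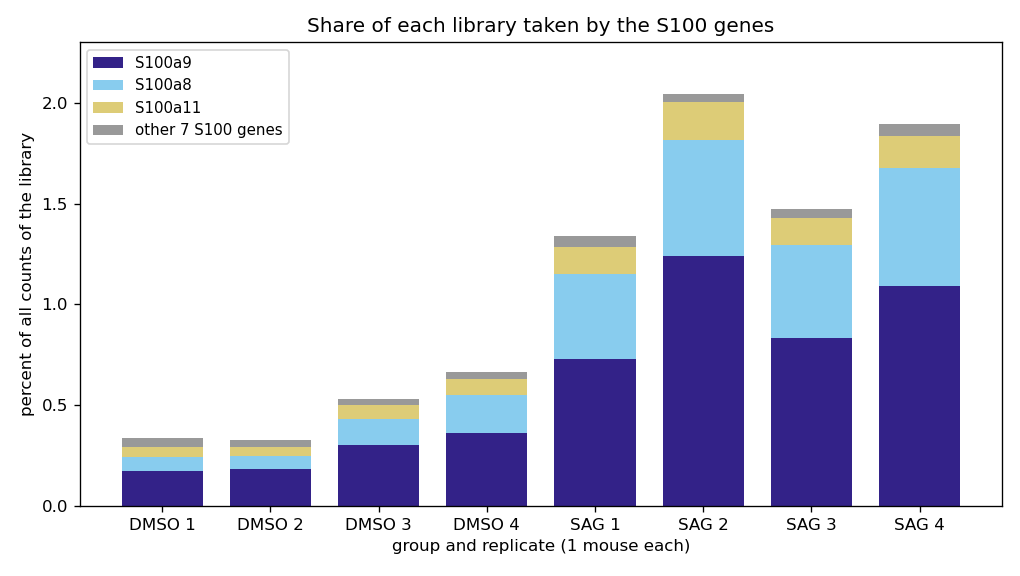
Percent of all counts of a library (y axis) taken by *S100a9*, *S100a8*, *S100a11*, and the other 7 members, stacked, in each of the 8 mice (x axis). The total is 0.327% to 0.664% in DMSO-treated and 1.34% to 2.04% in SAG-treated mice, and *S100a9* is the largest part in each.

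The balance between the calprotectin subunits was also compared, since a ratio of counts within a library does not depend on library size. For each count of *S100a8* there were 2.40, 2.81, 2.31, and 1.98 counts of *S100a9* in DMSO replicates 1 to 4 and 1.72, 2.15, 1.82, and 1.86 in SAG replicates 1 to 4. The ratio was lower in most SAG-treated mice, but the groups overlapped, because DMSO replicate 4 lay below SAG replicate 2. The log2 ratio of *S100a8* to *S100a9* was -1.24 ± 0.21 (SD, n = 4) with DMSO and -0.91 ± 0.14 (SD, n = 4) with SAG, a difference of 0.32 that did not pass the threshold (exact 2-sided permutation test, p = 0.0571).

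Neutrophil marker genes moved in the same direction. All 15 had counts in every mouse and a positive log2 fold change, with a median of 1.97. Positive values were found for 6964 of all 15421 tested genes. Of the 15 markers, 9 were higher at the threshold (2.62% of all tested genes). The groups were separated by 11 of them, with all SAG-treated mice above (7.9% of all tested genes). The most abundant were *Ngp*, a granule protein, at 1741 ± 998 CPM with DMSO and 7021 ± 1751 CPM with SAG (SD, n = 4), *Ltf*, the gene of lactoferrin, at 1211 ± 734 and 4942 ± 1503 CPM, and *Lcn2*, the gene of lipocalin 2, at 676 ± 347 and 3039 ± 724 CPM. *Elane*, *Mpo*, *Prtn3*, and *Ctsg*, which encode proteins of the primary granules made in immature cells, were not called, with log2 fold changes of 0.87, 0.40, 0.22, and 0.44. Also not called were *Ly6g*, at 2.23 (edgeR adjusted p = 0.116), and *Cebpe*, at 1.17 (edgeR adjusted p = 0.0877), although both separated the groups. Among DMSO-treated mice the summed neutrophil level was highest in replicate 4, at 10237 CPM, which was also the highest for *S100a8* and *S100a9*. The part of these cells in the S100 results was not tested. Monocyte and macrophage markers, which could share calprotectin, summed to 584 to 1367 CPM with DMSO and 659 to 882 CPM with SAG. Of these 10 markers, 6 had positive and 4 negative log2 fold changes (6964 and 8457 of all 15421 tested genes). At the threshold 1 was higher, *Ly6c2*, at 1.48, and 0 were lower, against 2.62% and 0.266% of all tested genes. *F13a1*, the most abundant of them with DMSO, was at 392 ± 182 CPM with DMSO and 191 ± 64.8 CPM with SAG (SD, n = 4), without overlap but not called (edgeR adjusted p = 0.147).

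When *S100a8* was expressed relative to the neutrophil markers (its log2 CPM minus the mean log2 CPM of the 15 markers), it was 2.78, 2.71, 2.78, and 2.54 in DMSO replicates 1 to 4 and 3.00, 3.40, 3.62, and 3.65 in SAG replicates 1 to 4. Every SAG-treated mouse was above every DMSO-treated mouse, by 0.72 in the means (exact 2-sided permutation test, p = 0.0286, and 0.114 after adjustment over the 4 relative values tested; those of the other members are descriptions). The 15 markers include *Elane*, *Mpo*, *Prtn3*, and *Ctsg*, whose log2 fold changes of 0.22 to 0.87 were below the list median of 1.97. They lower the change in the list mean, and with the median of the list the *S100a8* difference was 0.54. The log2 fold change of *S100a8*, 2.25, was above that of each of the 15 markers, the highest of which was *Mmp9* at 2.24, but by less than the SE of either. *S100a9* relative to the same markers was 4.04, 4.20, 3.98, and 3.52 with DMSO and 3.79, 4.51, 4.48, and 4.55 with SAG. These groups overlapped, since SAG replicate 1 lay below 3 of the DMSO-treated mice, and the difference of 0.39 did not pass the threshold (exact 2-sided permutation test, p = 0.114, adjusted p = 0.114). After adjustment neither relative difference passed the threshold, and with 4 mice per group and 4 values none could have done so unless at least 3 reached the smallest p.

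The tested genes with the profile nearest to *S100a8* over the 8 libraries were *Wfdc21*, *Mmp9*, and *Retnlg*, with root mean square differences of 0.121, 0.138, and 0.156 on the log2 scale after each gene's mean was subtracted. For *S100a9* they were *Retnlg* at 0.124, *Mmp9* at 0.135, and *Inhba* at 0.141, among 9303 candidates with a mean of at least 10 CPM. *Mmp9* and *Retnlg* are on the list of neutrophil markers, and *Mmp9* encodes a matrix metalloproteinase that neutrophils store in granules.

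*S100a6* and *S100a11* encode annexin-binding proteins. *S100a6* (calcyclin) was measured at 84.7, 63.0, 78.5, and 133 CPM in DMSO replicates 1 to 4 and at 299, 262, 242, and 364 CPM in SAG replicates 1 to 4. All SAG-treated mice lay above the DMSO group, in which replicate 4 was the highest. Its mean rose from 89.9 ± 30.3 to 292 ± 53.5 CPM (SD, n = 4), with a fitted log2 fold change of 1.70 (SE 0.25, edgeR adjusted p = 0.0102, called in 8 of 8 fits with a mouse left out).

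*S100a11* (calgizzarin), a partner of annexin A1, was measured at 497, 459, 703, and 775 CPM in DMSO replicates 1 to 4 and at 1278, 1942, 1355, and 1706 CPM in SAG replicates 1 to 4. Again the groups were apart, and DMSO replicates 3 and 4 lay above replicates 1 and 2. The mean rose from 609 ± 154 to 1570 ± 310 CPM (SD, n = 4), a log2 fold change of 1.37 (SE 0.23, edgeR adjusted p = 0.0131). The call was lost without any 1 of 3 mice, as the edgeR adjusted p was 0.0569 without DMSO replicate 2, 0.0538 without DMSO replicate 3, and 0.0543 without SAG replicate 4, with log2 fold changes of 1.25, 1.41, and 1.33. Of the 31-base words in its annotated transcript, 48.9% also occur in transcripts of processed pseudogenes, which have no counts used here, so its counts are uncertain. Relative to the neutrophil markers, *S100a6* differed between the groups by 0.10 and *S100a11* by -0.26 on the log2 scale, with overlapping groups.

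*S100a10* and *S100a4* were not called. *S100a10*, whose protein (p11) forms a heterotetramer with annexin A2, was measured at 142, 101, 106, and 92.6 CPM in DMSO replicates 1 to 4 and at 101, 56.8, 89.5, and 98.5 CPM in SAG replicates 1 to 4. The groups overlapped, with SAG replicate 2 the lowest, and the log2 fold change was -0.35 (SE 0.23, edgeR adjusted p = 0.509). Without single mice its log2 fold change was between -0.43 and -0.19, the latter without SAG replicate 2, and it was -0.20 without DMSO replicate 1. Relative to the mean of the 15 neutrophil markers, all of which had positive log2 fold changes, *S100a10* differed by -2.01, with the groups apart. The other tested members that were not called differed by -2.43 (*S100b*), -1.86 (*S100a1*), -1.22 (*S100a13*), and -0.87 (*S100a4*), with overlapping groups. Relative to the chondrocyte markers *S100a10* differed by 0.71, with overlapping groups. *S100a4*, which encodes a protein that binds the heavy chain of nonmuscle myosin IIA, was measured at 20.1, 10.1, 6.67, and 7.44 CPM in DMSO replicates 1 to 4 and at 13.5, 11.03, 20.1, and 29.0 CPM in SAG replicates 1 to 4. Its groups overlapped because DMSO replicate 1 lay above the others of its group, and its log2 fold change was 0.73 (SE 0.46, edgeR adjusted p = 0.497). It was 1.19 without DMSO replicate 1 and 0.43 without SAG replicate 4. It shares 302 exonic bases on the same strand with *Gm42674*, a gene model with no counts used here, and 49.2% of its 31-base words.

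*S100a2*, a gene known mainly from epithelia, had 0 counts in all 4 DMSO-treated mice and 41, 10, 32, and 20 counts in SAG replicates 1 to 4, or 1.18, 0.238, 0.797, and 0.456 CPM. The groups did not overlap, at a level near the limit of detection. A total of 3 counts corresponds to between 0.067 and 0.114 CPM in the DMSO libraries, so the SAG mean of 0.667 CPM was at least 5.86-fold higher than the highest of these per-library floors, which cover counting error only. *S100a2* did not pass the filter of the main test. Without a filter its adjusted p was 0.0898 from edgeR, and DESeq2 gave no adjusted p.

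*S100a1* and *S100b* are the members known from cartilage. *S100b* was measured at 84.7, 82.1, 63.4, and 37.1 CPM in DMSO replicates 1 to 4 and at 50.5, 17.7, 49.7, and 41.3 CPM in SAG replicates 1 to 4. DMSO replicates 1 to 3 were above all SAG-treated mice, but DMSO replicate 4 was below 3 of them. The mean was 66.8 ± 22.0 CPM with DMSO and 39.8 ± 15.3 CPM with SAG (SD, n = 4), and the log2 fold change of -0.75 was not called (SE 0.36, edgeR adjusted p = 0.336). *S100a1* was measured at 45.8, 39.4, 19.0, and 12.1 CPM in DMSO replicates 1 to 4 and at 25.1, 11.2, 16.1, and 49.8 CPM in SAG replicates 1 to 4. Both groups spread widely, and SAG replicate 4 was the highest of all 8 mice. Its log2 fold change was -0.19 (SE 0.51, edgeR adjusted p = 0.912) and had no stable sign, being 0.12 without DMSO replicate 1 and 0.06 without SAG replicate 2.

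The chondrocyte markers were lower in the fit but not called. A negative log2 fold change was found for 8457 of all 15421 tested genes and for all 13 chondrocyte markers, whose median was -0.99. Of these markers 0 passed the threshold, against 0.266% lower among all tested genes. The most abundant was *Col2a1*, the gene of type II collagen, at 53695 ± 15452 CPM with DMSO and 26432 ± 10027 CPM with SAG (SD, n = 4), a log2 fold change of -1.02 (edgeR adjusted p = 0.158). *Sox9*, a regulator of the 2 S100 genes in cartilage, was at 637 ± 206 and 359 ± 134 CPM. The lowest summed chondrocyte level was in SAG replicate 2, at 19005 CPM, which was also the mouse with the lowest *S100b* and the lowest *S100a1*.

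Relative to the mean log2 CPM of the 13 chondrocyte markers, *S100b* was -4.49, -4.41, -4.59, and -4.52 in DMSO replicates 1 to 4 and -4.09, -4.29, -3.98, and -4.47 in SAG replicates 1 to 4. It was nearly constant among DMSO-treated mice (SD 0.07) although its CPM varied, and was 0.29 higher in the mean with SAG, where replicate 4 lay within the DMSO range (exact 2-sided permutation test, p = 0.0571, adjusted p = 0.114). *S100a1* on the same scale was -5.38, -5.47, -6.32, and -6.13 with DMSO and -5.10, -4.95, -5.61, and -4.20 with SAG. Here 3 SAG-treated mice were above all DMSO-treated mice and SAG replicate 3 was not, for a difference of 0.86 (exact 2-sided permutation test, p = 0.0857, adjusted p = 0.114). All 10 members were higher with SAG relative to this list, whose markers all had negative log2 fold changes. The difference of *S100b* was the smallest among the members. *S100a4* differed by 1.85 with the groups apart, and the groups were also apart for *S100a13*. A relative rise was thus not particular to *S100a1* and *S100b*. The nearest profiles to *S100b* were those of *Emp2*, *Tns2*, and *Sox9*, with root mean square differences of 0.0998, 0.115, and 0.131. For *S100a1* the nearest genes were *Thrb*, *Pid1*, and *Plxnb1*, at 0.296, 0.334, and 0.357, so no candidate followed it as closely. Markers of Schwann cells, glia that also express *S100b*, summed to 20.5 to 60.6 CPM with DMSO and 38.6 to 91.1 CPM with SAG, with *Mbp* the most abundant, and 0 of the 4 tested were called.

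**Figure D4:**
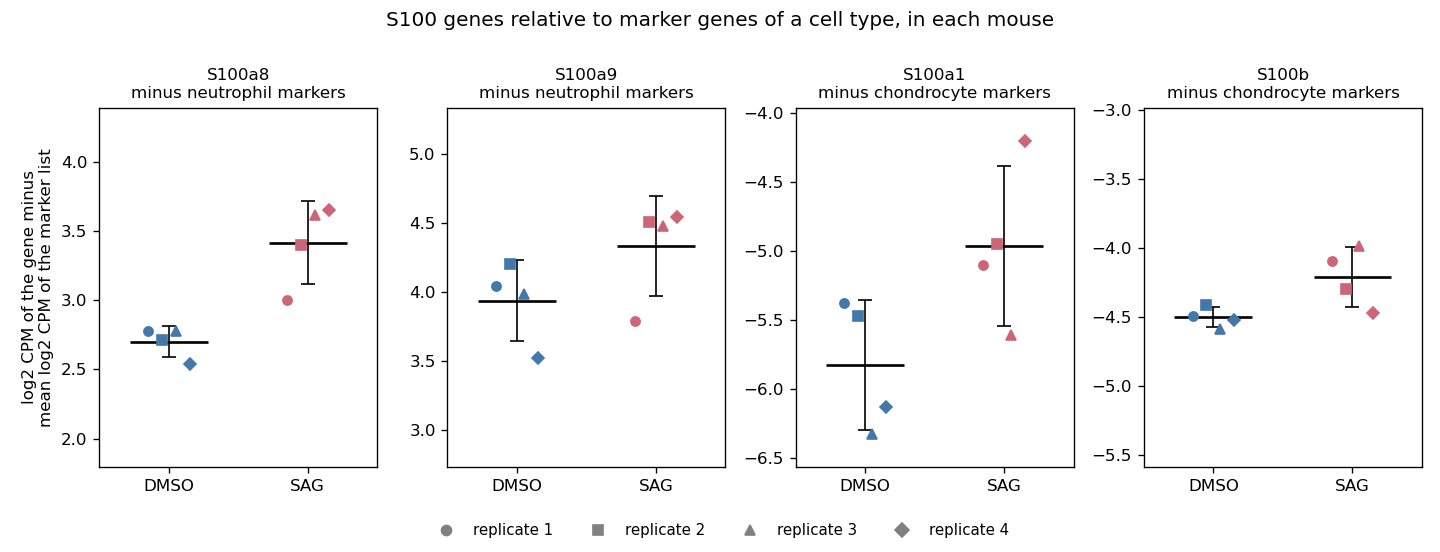
Log2 CPM of *S100a8* and *S100a9* minus the mean log2 CPM of 15 neutrophil markers, and of *S100a1* and *S100b* minus that of 13 chondrocyte markers (y axes, each spanning the same log2 range), in each mouse with mean and SD (n = 4 per group). The groups are apart for *S100a8* and overlap for the other 3 genes.

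*S100a13*, whose protein takes part in the nonclassical release of FGF1, starts head to head with *S100a1* at 90514435 on chromosome 3. It was measured at 58.9, 44.1, 39.9, and 34.0 CPM in DMSO replicates 1 to 4 and at 64.7, 49.1, 59.6, and 60.3 CPM in SAG replicates 1 to 4. In SAG replicates 1, 3, and 4 the level was above the DMSO group, but SAG replicate 2 was below DMSO replicate 1, and the log2 fold change of 0.40 was not called (SE 0.23, edgeR adjusted p = 0.436). The neighbors were not expressed in a fixed proportion, since *S100a13* had between 1.12 and 2.80 counts for each count of *S100a1* with DMSO and between 1.21 and 4.38 with SAG.

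Levels of different genes were compared per kilobase of exon, counting the exons of all annotated transcripts of a gene. Close ranks depend on this length, which was 1.367 kb for *S100a6* and 0.715 kb for *S100a13*. In CPM, *S100a6* was above *S100a13* in all 4 DMSO-treated mice, with means of 89.9 and 44.2. With SAG the mean CPM of *S100a10*, 86.4, was above that of *S100a13*, 58.4. In DMSO-treated mice the order began with *S100a9* at 4766 ± 1658, *S100a8* at 1582 ± 751, and *S100a11* at 1191 ± 302 CPM per kb (SD, n = 4), each above the next in all 4 mice. *S100a10* at 91.0 ± 17.9 CPM per kb followed and was above *S100a6* in 3 of 4 mice. *S100a6* at 65.7 ± 22.2 CPM per kb was above *S100a13* at 61.9 ± 14.8 CPM per kb in 2 of 4 mice, so this pair had no fixed order. The same was true of *S100b* at 45.0 ± 14.8 and *S100a1* at 41.9 ± 23.2 CPM per kb, with *S100b* above in 2 of 4 mice, and *S100a4* was at 18.9 ± 10.6 CPM per kb.

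In SAG-treated mice the same 3 genes led the order, with *S100a9* at 19100 ± 4983, *S100a8* at 7537 ± 1428, and *S100a11* at 3073 ± 607 CPM per kb (SD, n = 4). *S100a6* was the fourth at 213 ± 39.2 CPM per kb, above *S100a13* in all 4 mice. *S100a13* at 81.7 ± 9.24 CPM per kb was above *S100a10* at 71.3 ± 16.8 CPM per kb in all 4 mice. The last ranks were *S100a1* at 36.8 ± 24.7, *S100a4* at 31.5 ± 13.8, *S100b* at 26.8 ± 10.3, and *S100a2* at 2.12 ± 1.31 CPM per kb. *S100a1* was above *S100a4* in 2 of 4 mice and *S100a4* above *S100b* in 3 of 4, so these 3 genes had no fixed order.

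Among 11 genes of S100 partners and receptors, 3 were higher with SAG and 0 were lower, against 2.62% and 0.266% of all tested genes. *Anxa1*, the gene of annexin A1, which binds S100A11, was at 392, 263, 470, and 757 CPM in DMSO replicates 1 to 4 and at 1373, 1887, 1354, and 1746 CPM in SAG replicates 1 to 4. The groups did not overlap, and the log2 fold change was 1.76 (SE 0.30, edgeR adjusted p = 0.0132). *Anxa11*, the gene of annexin A11, a partner of S100A6, rose by 0.99 (SE 0.20, edgeR adjusted p = 0.0258) from 94.8 ± 19.2 to 188 ± 28.5 CPM (SD, n = 4). *Myh9*, the gene of the nonmuscle myosin IIA heavy chain that S100A4 binds, rose by 1.17 (SE 0.25, edgeR adjusted p = 0.0323) from 2550 ± 759 to 5752 ± 1332 CPM (SD, n = 4).

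The other 8 partner and receptor genes were not called. *Anxa2*, the partner of *S100a10*, was at 307 ± 35.1 CPM with DMSO and 491 ± 61.1 CPM with SAG (SD, n = 4), without overlap, but its log2 fold change of 0.67 missed the threshold (edgeR adjusted p = 0.0576). Of the receptors, *Tlr4* also showed no overlap between the groups, at 10.9 ± 2.11 and 21.7 ± 5.35 CPM (log2 fold change 0.99, edgeR adjusted p = 0.139). *Ager*, the gene of RAGE, was at 6.09 ± 3.39 and 12.8 ± 5.09 CPM with overlapping groups (log2 fold change 1.07, edgeR adjusted p = 0.349). *Bsg* and *Emb*, which encode basigin and embigin, had log2 fold changes of -0.32 and 0.21. *Anxa6*, *Ahnak*, and *Cacybp*, the gene of the calcyclin-binding protein, had log2 fold changes of -0.29, -0.62, and 0.00.

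Of 9 further genes with S100 names, 4 had counts that could be tested, and 0 of them were called. *S100a16* was at 6.31 ± 6.07 CPM with DMSO and 5.56 ± 4.22 CPM with SAG, and *S100a3* at 1.17 ± 1.17 and 1.03 ± 1.66 CPM (SD, n = 4). *S100pbp*, which encodes an S100P-binding protein and not an S100 protein, was at 19.0 ± 5.34 and 11.6 ± 5.69 CPM (log2 fold change -0.72, edgeR adjusted p = 0.438).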

How the data were processed

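The data are bulk RNA sequencing of mCherry+CD73+ cells, with 1 library per mouse and 4 mice in each of the DMSO and SAG groups. The authors deposited raw counts per gene symbol and library as whole numbers, without normalization. The submitters' processing notes name kallisto, DESeq2, and GRCm38 with no role or version, and the RNA kit was one for low input with stranded libraries. A program such as kallisto divides reads between similar transcripts, which can move counts between a gene and its pseudogenes. All 8 libraries were matched by their labels. Of the 16536 symbols, 16524 were found in GENCODE M21, which gave coordinates and exon lengths.

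The software was edgeR 4.0.16, DESeq2 1.42.0, and limma 3.58.1 under R 4.3.3. filterByExpr kept 15421 genes, TMM scaled the libraries, and groups were compared by the quasi-likelihood test of edgeR in its robust form, with p adjusted by Benjamini-Hochberg over all tested genes and a threshold of 0.05. A prior count of 2 was used for log2 CPM. Single values were compared by exact 2-sided permutation tests over 70 relabellings in scipy 1.17.1. Totals of 24971992 to 46593090 counts per library put the value of 3 counts between 0.0644 and 0.12 CPM before TMM scaling. The fits were tested on simulated data.

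The S100 genes and all lists were chosen with earlier results of these data known. Named were the 10 S100 genes, the tested genes of the other S100 and partner lists, the most abundant markers and those that a result touches, and the 3 nearest profiles to each of 4 members; the primary granule genes, *Ly6g*, *Cebpe*, *Sox9*, *Mmp9*, and *Ly6c2* were named after their values had been seen. The fits were repeated with voom and quality weights per sample, the Wald test of DESeq2, size factors of DESeq2 in edgeR, unscaled library sizes, no filter or at least 10 counts in every library, a replicate block, each mouse left out, other marker summaries, and a prior count of 0.5. No protein sequences were used here.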

Additional observations from a re-analysis of the deposited data

Results flagged for a closer look

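One value stood apart from the rest of its group. *S100a9* relative to the neutrophil markers was 3.79 on the log2 scale in SAG replicate 1, and the next lowest SAG-treated mouse was at 4.48. The gap took 0.913 of the group's range, above Dixon's 95% critical value for 4 samples. Among the 31 groups of values examined, chance gives about 1.55 such cases. Without SAG replicate 1 the difference between the groups was 0.57 in place of 0.39.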

How the results depend on the processing

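The 4 S100 genes called higher, and 0 called lower, kept these counts with DESeq2's Wald test, limma voom, either other scaling, either other filter, and a replicate block. With the replicate block the log2 fold change was 2.35 for *S100a8* (edgeR adjusted p = 0.0244). The correlations of deviations between mice with the same replicate number were 0.120, 0.022, 0.019, and 0.010. Of the 4 numbers, 2 correlated best with themselves. With 4 mice per group, these values cannot show whether the replicate numbers pair the mice. With each mouse left out, 3 to 4 members were called higher and 0 were called lower, *S100a11* being the one lost. *S100a1* changed sign without DMSO replicate 1 (0.121) and without SAG replicate 2 (0.06125), at edgeR adjusted p of 0.954 and 0.987, within a range of -0.73 to 0.12 over the mice left out. Leaving out a mouse moved the difference in the members' share of counts between 1.105 and 1.34 percentage points, the log2 ratio of *S100a8* to *S100a9* between 0.24 and 0.41, and the relative values between 0.64 and 0.86 for *S100a8*, 0.25 and 0.57 for *S100a9*, 0.61 and 1.08 for *S100a1*, and 0.22 and 0.38 for *S100b*. With the median of the marker list, these relative differences were 0.54, 0.21, 0.90, and 0.33. Over all genes the count of higher genes ranged from 80, without DMSO replicate 2, to 1017, without DMSO replicate 4, around 404, and that of lower genes from 4, without DMSO replicate 3, to 413, with DESeq2, around 41. With 4 mice per group and 3 counts near 0.1 CPM, the design limits the low genes *S100a2*, *S100a3*, and *S100a7a* most.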
